A study of Homo sapiens with 12 samples.

Results

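Spinal muscular atrophy (SMA) that does not map to *SMN1* on chromosome 5 is called non-5q SMA, and the 9 genes described here are each known from such a disease. They were *IGHMBP2*, *TRIP4*, *ASCC1*, *EXOSC3*, *EXOSC8*, *VRK1*, *ASAH1*, *LAS1L* and *TRPV4*, chosen by name, and each was looked up by its gene symbol in the deposited tables of both neuron types. All 9 were among the 19016 genes of the table for i3Ns. In the table for iMNs, 8 were among the 16406 genes, and *TRPV4* had no value there. Of the 19016 genes of the i3N table, 16093 also had a value in iMNs, and the 8 others belonged to these 16093.

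The study sequenced total RNA, after depletion of ribosomal RNA, from human neurons carrying a lentiviral, doxycycline-induced shRNA for 12 days. iMNs were motor neurons made from an induced pluripotent stem cell line with Td-Tomato under the HB9 promoter and sorted for Td-Tomato, and i3Ns were glutamatergic neurons, labelled cortical, made from H1 embryonic stem cells by inducible NGN2. Each type had 3 libraries with a scrambled shRNA (SCR) and 3 with an shRNA against *SMN1* and *SMN2* (*SMN*-KD), 12 libraries in all, so that the controls also carried an shRNA vector. With 1 line behind each neuron type, effects of the type, of the line and of the differentiation method cannot be told apart.

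The values are the authors' mean normalized counts, 1 per gene and cell type, in which the 3 SCR and 3 *SMN*-KD libraries are pooled. A difference between the neuron types and a knockdown response that differs between them therefore cannot be told apart. No value per library was used here. The levels therefore have no replicate error, no difference between them was tested, the depth of each library is unknown, and neither the knockdown of *SMN1* and *SMN2* nor a response of the 9 genes to it was analysed here. In bulk RNA, fewer cells that express a gene and less RNA per cell cannot be told apart.

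Of these genes, most act in every cell rather than in neurons alone. IGHMBP2 is a helicase related to UPF1 that is found with ribosomes. TRIP4 and ASCC1 are subunits of the ASC-1 complex, which works in transcription and in the rescue of stalled ribosomes, and EXOSC3 and EXOSC8 are subunits of the RNA exosome, which trims and degrades RNA. LAS1L cuts precursor ribosomal RNA, VRK1 is a nuclear kinase, ASAH1 is the lysosomal acid ceramidase, and TRPV4 is a calcium-permeable cation channel of the plasma membrane. The first 6 of these share a link to RNA or ribosomes, as SMN does through the assembly of spliceosomal particles.

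The labelled cell types were checked on marker genes. All 5 markers of neurons in general lay above the median gene in both types. *TUBB3* had 58362 normalized counts in iMNs and 70054 in i3Ns, and the lowest of the 5, *RBFOX3*, had 1886 and 1351. Of 5 glutamatergic markers, 4 were at least 2-fold higher in i3Ns, among them the transporter gene *SLC17A7* with 50.1 normalized counts in iMNs and 6490 in i3Ns. The remaining marker, *NEUROG2*, which encodes NGN2, the factor induced to make i3Ns, was 2.40-fold higher in iMNs, with 263 and 114. Motor neuron markers did not separate the types in the way of the labels. The transcription factor genes *MNX1* (which encodes HB9), *ISL1*, *ISL2* and *LHX3* were all at least 2-fold higher in i3Ns, with *MNX1* at 430 normalized counts in iMNs and 2279 in i3Ns. The cholinergic transporter genes went the other way, *SLC5A7* with 8460 and 2472 and *SLC18A3* with 3115 and 1865. The other motor neuron markers differed less, *CHAT* with 533 and 527 and *PRPH* with 7288 and 5833. The 2 proliferation markers *MKI67* and *TOP2A* summed to 50.8 normalized counts in iMNs and 832 in i3Ns. *GFAP* and *AQP4*, which mark astrocytes, were looked up and had no value in either type. The 3 other glial markers summed to 376 normalized counts in iMNs and 1417 in i3Ns. The largest part was *MBP* (329 and 949), while *OLIG2* had 20.7 and 362 and *PDGFRA* 26.2 and 105. Of 4 mesenchymal markers, 3 summed to 2039 in iMNs and all 4 to 4896 in i3Ns. Most of this was *COL1A1* (1321 and 4228), while *COL1A2* had 686 and 611.

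The 8 genes with values in both types were moderately expressed, and *TRPV4* was near the lower end of its table. Their mean normalized counts ran from 300 for *EXOSC8* to 4674 for *ASAH1* in iMNs, and from 526 to 2900 for the same pair in i3Ns. Levels of different genes can be compared only per length, so each mean was divided by the length of the gene's MANE Select transcript (the reference transcript shared by Ensembl and RefSeq). On this scale of normalized counts per kilobase (kb), the 8 genes spanned 8.47-fold in iMNs, from 199 for *VRK1* to 1682 for *ASAH1*. They spanned 2.70-fold in i3Ns, from 386 for *VRK1* to 1043 for *ASAH1*. The order from the highest level per kb in iMNs was *ASAH1*, *LAS1L*, *IGHMBP2*, *ASCC1*, *TRIP4*, *EXOSC3*, *EXOSC8* and *VRK1*. In i3Ns it was *ASAH1*, *LAS1L*, *TRIP4*, *IGHMBP2*, *EXOSC8*, *ASCC1*, *EXOSC3*, *VRK1* and *TRPV4*. The first 2 places were the same in both types. In i3Ns the 6 places after *ASAH1* fell between 549 and 418 normalized counts per kb, and with no replicate error these neighbours cannot be ranked with confidence. Per kb, 6 of the 8 genes lay above the median gene of the iMN table (287) and 8 of 9 above that of the i3N table (210). These medians take in pseudogenes, 1020 in iMNs and 2052 in i3Ns. No count per kb was made among shared or protein-coding genes alone. By mean normalized count alone, without length, 4 of 8 and 7 of 9 lay above the median gene, which had 875 normalized counts in iMNs and 577 in i3Ns. The i3N table held more weakly expressed genes, with a lower quartile of 35.0 normalized counts against 139 in iMNs. Ranked among the 16093 genes of both tables, 4 of 8 and 5 of 8 lay above the median.

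**Figure D1:**
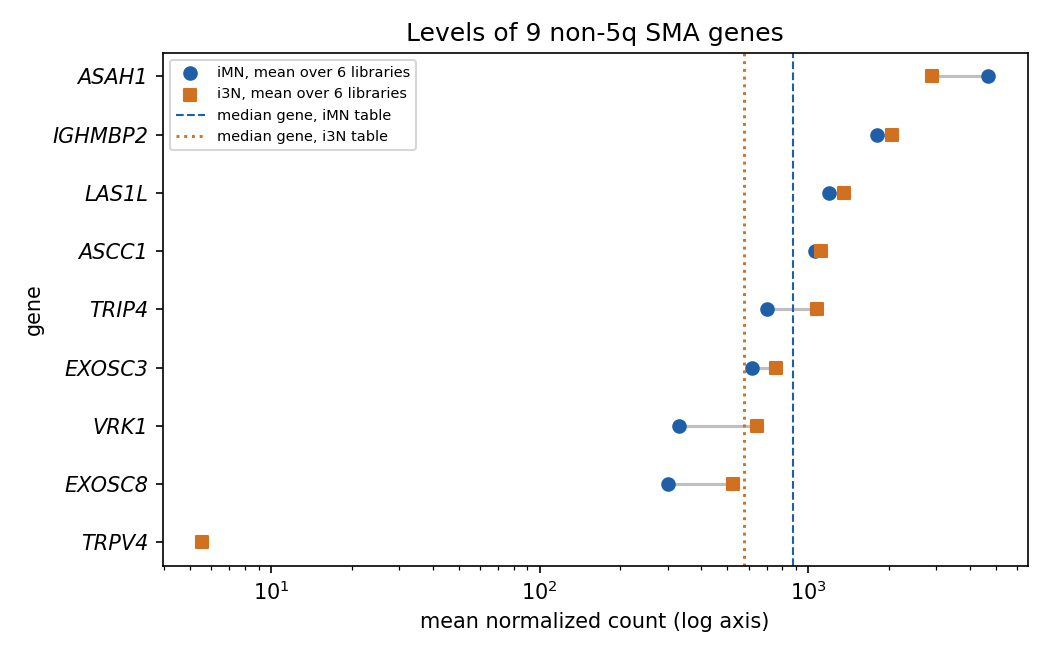
Mean normalized count of each gene (log axis, 1 point per cell type, pooled over 6 libraries with no error available). Circles are iMNs, squares are i3Ns, and vertical lines mark the median gene of each table at 875 and 577. *ASAH1* is the only gene whose iMN point lies to the right of its i3N point, and *TRPV4* has an i3N point at 5.53.

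To set the cell types side by side, each mean was expressed per 1000000 of its table's sum over the 16093 shared genes. The tables had been normalized separately, so this scale was set here. Of all shared genes, 14.5% were at least 2-fold higher in iMNs, 10.2% at least 2-fold higher in i3Ns and 24.6% at least 2-fold apart in either direction. None of the 8 genes was at least 2-fold apart, on this scale or under the 6 alternatives tried. The level was higher in i3Ns for 7 of them and in iMNs for 1, against 51.0% of all shared genes higher in i3Ns. Their median log2 ratio of iMN over i3N levels was -0.19, against -0.01 over all shared genes.

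**Figure D2:**
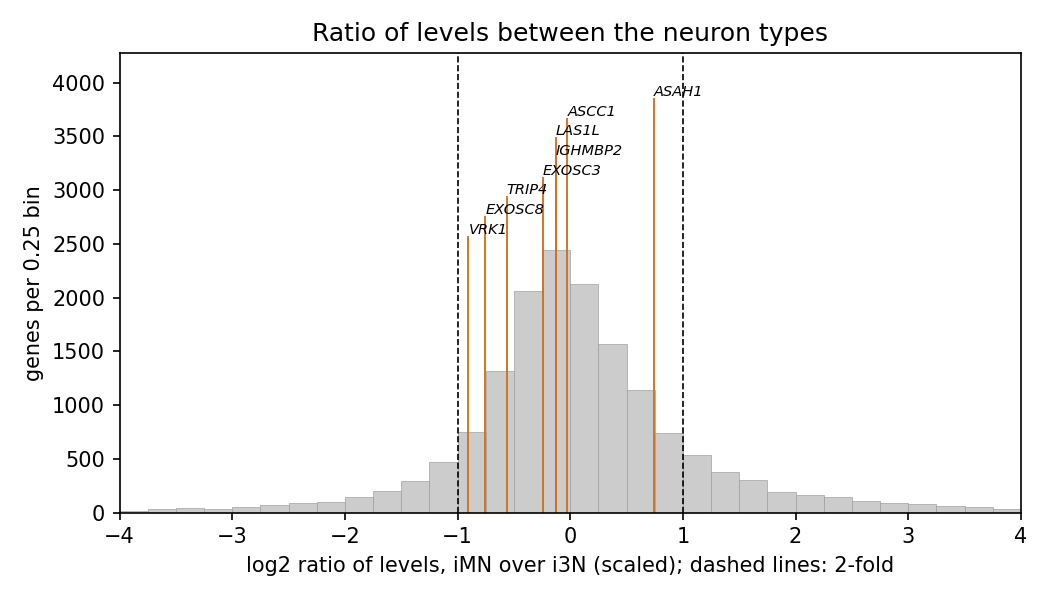
Histogram of the log2 ratio of iMN over i3N levels per 1000000 for the 16093 genes in both tables, in bins of 0.25, with the 8 genes drawn as orange lines whose heights only space the names and carry no value. Dashed lines mark a 2-fold difference, and 285 genes beyond 4 on either side are not drawn. All 8 lines fall between the dashed lines, from *VRK1* at -0.90 to *ASAH1* at 0.74.

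*VRK1* (ENSG00000100749, chromosome 14, 96797304 to 96954846 on the plus strand of GRCh38, 13 exons) was the gene closest to a 2-fold difference. Its mean was 330 normalized counts in iMNs and 642 in i3Ns, or 7.65 and 14.3 per 1000000, a level 1.87-fold higher in i3Ns. The log2 ratio of -0.90 lay above that of 11.6% of shared genes. The proliferation markers moved in the same direction, with *MKI67* at 28.3 normalized counts in iMNs and 522 in i3Ns and *TOP2A* at 22.5 and 311. Their part in the *VRK1* difference was not tested. The paralog *VRK2* was the lowest of its list, with 38.2 and 151 normalized counts, and the more distant *VRK3* had 1135 and 1099. Per kb, *VRK1* was number 3 of 4 in both types, below *VRK3* (590 in iMNs and 571 in i3Ns) and *BANF1* (3796 and 3313), which encodes the chromatin-binding protein that VRK1 phosphorylates.

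*EXOSC8* (ENSG00000120699, chromosome 13, 36998816 to 37025881 on the plus strand, 11 exons) encodes a subunit of the ring of the exosome, and *EXOSC3* (ENSG00000107371, chromosome 9, 37759234 to 37832117 on the minus strand, 4 exons) one of the RNA-binding cap on that ring. *EXOSC8* had 300 normalized counts in iMNs and 526 in i3Ns, a level 1.69-fold higher in i3Ns. *EXOSC3* had 616 and 759, a level 1.19-fold higher in i3Ns. Both were thus higher in i3Ns, *EXOSC8* by more. The exosome list holds 12 genes, EXOSC1 to EXOSC10, the ribonuclease DIS3 and the helicase MTREX. Of these, 9 were higher in i3Ns, against 51.0% of all shared genes. None was 2-fold apart, against 24.6%. *EXOSC8* had the lowest level per kb of the 12 in iMNs (258) and was number 8 from the top in i3Ns (451), and *EXOSC3* was number 10 in both (340 and 418). The neighbour of *EXOSC8* in iMNs was *DIS3* (266), and its neighbours in i3Ns were *EXOSC4* (468) and *EXOSC2* (443). *EXOSC3* lay between *EXOSC5* (345) and *DIS3* in iMNs and between *EXOSC2* and *DIS3* (387) in i3Ns, where *EXOSC5* was the lowest (361). The highest level per kb was that of *EXOSC7* in iMNs (887) and of *EXOSC10*, the nuclear ribonuclease subunit, in i3Ns (1183). Both values carry a limit of annotation. The transcript of *EXOSC8* shares 303 exonic bases with *SUPT20H* on the opposite strand, which had 2165 and 3195 normalized counts, and whether strand was used in quantification is not given in the sources used here. The transcript of *EXOSC3* shares 150 exonic bases with an unnamed gene of its own strand, ENSG00000255872, that had 21.2 and 7.26.

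The ASC-1 complex has a pair of disease genes in this group. *TRIP4* (ENSG00000103671, chromosome 15, 64387748 to 64455303 on the plus strand, 13 exons) had 700 normalized counts in iMNs and 1075 in i3Ns, a level 1.48-fold higher in i3Ns. *ASCC1* (ENSG00000138303, chromosome 10, 72096032 to 72217134 on the minus strand, 10 exons) had 1056 and 1116, which came to nearly the same level on the common scale, 24.5 and 24.9 per 1000000. The remaining subunits were also higher in i3Ns, *ASCC2* with a log2 ratio of -0.36 and *ASCC3*, which encodes the helicase of the complex, with -1.45. *ASCC3* alone of the 4 was at least 2-fold apart, close to the 24.6% of all shared genes that were. Among all shared genes, 51.0% were higher in i3Ns. Per kb, the 4 genes lay close together in iMNs, from 348 for *TRIP4* to 540 for *ASCC2*, and farther apart in i3Ns, from 450 for *ASCC1* to 1142 for *ASCC3*.

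*IGHMBP2* (ENSG00000132740, chromosome 11, 68903863 to 68940602 on the plus strand, 15 exons) is the gene of SMA with respiratory distress. It had 1800 normalized counts in iMNs and 2048 in i3Ns, or 41.7 and 45.6 per 1000000. Its log2 ratio of -0.13 lay near the middle of all shared genes, above 42.9% of them. In a list of 6 helicases related to UPF1, *IGHMBP2* was number 2 per kb in both types (460 and 523), below *UPF1* (800.4 and 1004), the central factor of nonsense-mediated decay. The gene below it was *AQR* in both types (426 and 502), and the lowest was *MOV10* (57.1 and 73.4). The order of the 6 was the same in iMNs and i3Ns, and all 6 had a higher level in i3Ns, with none 2-fold apart. The shares over all shared genes were 51.0% higher in i3Ns and 24.6% at least 2-fold apart. *IGHMBP2* was the 1 gene of the 9 with a divergent protein-coding neighbour that starts within 1000 bases. The start of *MRPL21* lay 59 bases away, and *MRPL21*, which encodes a mitochondrial ribosomal protein, had 983 normalized counts in iMNs and 684 in i3Ns. Its log2 ratio was 0.58, so the neighbours differed in the direction of their ratio. Of 14503 protein-coding genes in both tables, 12.0% had such a neighbour, close to the 11.1% that 1 of 9 makes.

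*LAS1L* (ENSG00000001497, chromosome X, 65438549 to 65534810 on the minus strand, 14 exons) had 1196 normalized counts in iMNs and 1356 in i3Ns, or 27.7 and 30.2 per 1000000, with a log2 ratio of -0.13. LAS1L works with the kinase NOL9, and in a larger assembly with PELP1, TEX10, WDR18, SENP3 and MDN1, in the maturation of the large ribosomal subunit. Among these 7 genes, *LAS1L* was number 4 per kb in iMNs (484) and number 5 in i3Ns (549), next to *NOL9* in both (407 and 584). Its other neighbour was *WDR18* in iMNs (740.3) and *TEX10* in i3Ns (426). *PELP1* was the highest in iMNs (1318) and *SENP3* in i3Ns (1112), and the lowest were *TEX10* in iMNs (323) and *MDN1* in i3Ns (421). None of the 7 was 2-fold apart between the cell types, against 24.6% of all shared genes.

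*ASAH1* (ENSG00000104763, chromosome 8, 18055992 to 18084998 on the minus strand, 14 exons) is the gene of SMA with progressive myoclonic epilepsy and of Farber disease. It was the most abundant of the group in both types and the only 1 of the 8 that was higher in iMNs, with 4674 normalized counts in iMNs and 2900 in i3Ns. On the common scale these were 108 and 64.6 per 1000000, a 1.67-fold difference with a log2 ratio of 0.74, above 80.8% of shared genes. The lysosomal genes around it showed the same direction. Of 8 genes for the lysosomal breakdown of sphingolipids, *ASAH1* included, 7 were higher in iMNs, against 49.0% of all shared genes, with a median log2 ratio of 0.49. None of the 8 was at least 2-fold apart, against 24.6% of all shared genes. Per kb, *ASAH1* was number 2 in both types, between *PSAP*, which encodes the precursor of the saposins, and *SMPD1*, the gene of acid sphingomyelinase, and the lowest was *ARSA*, the gene of arylsulfatase A. The log2 ratios were 0.52 for *SMPD1* and 0.43 for *ARSA*, and *PSAP* was the exception with -0.20. The ceramidase list, which also held *NAAA*, the gene of a related amidase, was mixed in direction. Of its 5 genes in both tables, *ASAH1* and *ACER3* (0.39) were higher in iMNs. *ACER2* (-1.55) and *NAAA* (-1.91) were more than 2-fold higher in i3Ns, against 10.2% of all shared genes, and *ASAH2* had a log2 ratio of -0.48. Per kb, *ASAH1* was by far the highest of the list. It had 1682 in iMNs against 206 for *ACER3*, the next gene, and 1043 in i3Ns against 395 for *ACER2*. The lowest of the list was *NAAA* in iMNs (31.7) and *ACER1*, which had no value in iMNs, in i3Ns (1.37).

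**Figure D3:**
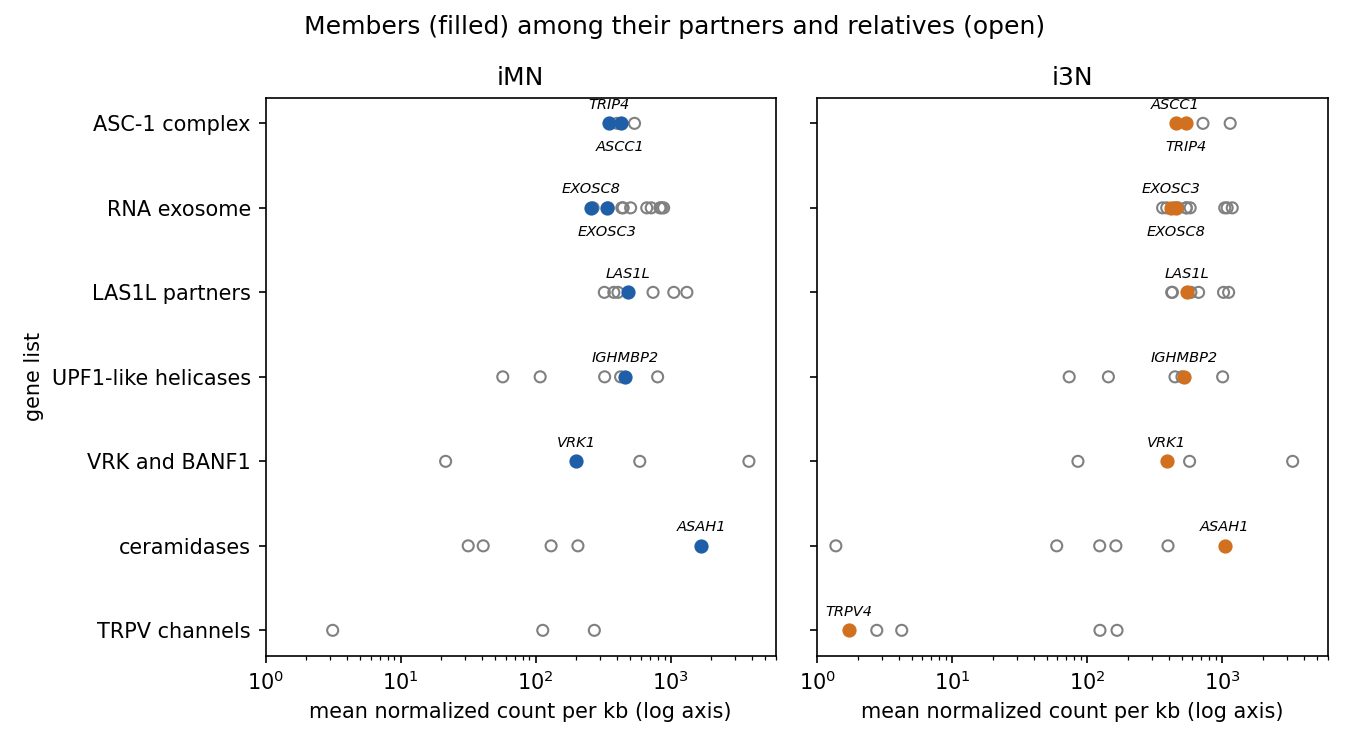
Mean normalized count per kb of transcript (log axis) for the genes of 7 lists in iMNs and i3Ns, 1 point per gene, pooled over 6 libraries with no error available. Filled points are the genes of non-5q SMA and open points their partners or relatives, with *ASAH1* at the top of its list in both types and *TRPV4*, shown for i3Ns only, at 1.71.

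*TRPV4* (ENSG00000111199, chromosome 12, 109783087 to 109833406 on the minus strand, 16 exons) had 5.53 normalized counts in i3Ns, higher than 10.8% of the genes of that table, whose lowest mean was 1.37. In the iMN table the lowest mean was 7.73. Per kb it had 1.71, against 1043 for *ASAH1* and 386 for *VRK1* in the same cells. At so low a mean without values per library, it is not known in how many libraries *TRPV4* was detected. Of its relatives, *TRPV1* was higher in i3Ns (470 normalized counts in iMNs and 691 in i3Ns) and *TRPV2* in iMNs (756 and 345), the latter by more than 2-fold. *TRPV6* was also low, with 9.13 and 8.02.

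The promoters of 5 of the 9 genes were in the RefSeq table of promoters (GRCh38.p14, 250 bases before to 50 after the start), namely *TRIP4*, *ASCC1*, *EXOSC3*, *EXOSC8* and *LAS1L*, and those of *IGHMBP2*, *VRK1*, *ASAH1* and *TRPV4* were not analysed here. All 5 had 20 to 30 CpG in 300 bases and a GC content of 59.0% to 64.3%. The medians over 11377 promoters of shared genes were 26 and 65.3%. The GC content of all 5 thus lay below the median, and the CpG counts lay on both sides of it. On both strands, 6 motifs were searched, chosen with the levels known. The cores of YY1 and NRF1 were shortened from longer forms after the matches of those forms had been seen, which added a match in *ASCC1*, so their counts are those of a choice made on these promoters. GGGCGG, the GC box of Sp1, was found in 4 of 5 promoters and in 69.1% of the 11377. CCAAT was found in 2 of 5 and in 35.9%, CCGGAAG, a core of ETS factors, in 1 of 5 and in 17.7%, and TATAAA in 1 of 5 and in 5.76%. AAGATGGC, a core of YY1 sites, was found in *TRIP4* and *EXOSC8* and in 4.93% of the 11377 promoters. GCGCANGCG, a core of NRF1 sites, was found in *ASCC1*, once on each strand, and in *EXOSC8*, and in 13.9% of the promoters. These YY1 and NRF1 matches overlapped no match of another motif. They are shown as the longest motifs found, each in a pair of the genes, and CCAAT, which *TRIP4* and *LAS1L* held, is shorter and is not shown. The sequences run 5′ to 3′ on the strand of the gene, with the motif or its reverse complement in capitals and 10 bases on each side.

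The YY1 core began 25 bases after the start of *TRIP4* (chr15:64387851-64387878, plus strand) and 17 bases after that of *EXOSC8* (chr13:37000793-37000820, plus strand).
TRIP4: ccggctggggAAGATGGCggtggctggg
EXOSC8: cgcgggcgggAAGATGGCggctgggttc

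The NRF1 core began 60 bases before the start of *ASCC1* (chr10:72216318-72216346, minus strand) and, as its reverse complement, 38 bases before it (chr10:72216296-72216324). In *EXOSC8* it began 8 bases before the start (chr13:37000768-37000796, plus strand).
ASCC1 at 60 bases: ctgtcccactGCGCAGGCGccagccctcg
ASCC1 at 38 bases: gccctcggccCGCATGCGCactcggtcaa
EXOSC8: gagaggagcgGCGCAGGCGcagacgcgcg

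With 5 promoters these matches are a description, they were not compared with the levels, and binding of a factor was not measured.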

How the data were processed

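RNA-seq libraries were trimmed with fastp and quantified with Salmon, and the authors tested *SMN*-KD against SCR libraries in DESeq2. Versions, the transcript annotation and a filter on low counts are not given in the sources used here, and the submitters' processing notes name hg38. The deposited tables, 1 per cell type, hold a signal per gene: the mean over 6 libraries of counts divided by the authors' size factors. They also hold the authors' own comparison of *SMN*-KD with SCR (log2 fold changes, standard errors, p-values), which was not used. Depth per library is not known, so no interval is given.

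The 9 genes, the lists and the motifs were chosen with earlier results of these data known. Named genes were all 9, plus the highest, the lowest and the neighbours of a member by level in each list. Other genes named, among them *ASAH2*, the markers and the further motor neuron disease genes, were chosen after their values were seen. Some genes of the lists first drawn up are not reported here and were left out of every list count. List genes were matched by symbol and, for *GARS1*, by identifier. Positions and transcript lengths came from GENCODE release 44 (GRCh38), which held 15713 and 18138 of the identifiers. Ratios used values per 1000000 of the sum over 16093 genes, with no pseudocount, in Python 3.11.15 with pandas 2.3.3. The ratio step was tested on simulated means without noise, where planted differences return by arithmetic. Alternatives changed the scale, pseudocount, filter, gene class, length and matching of identifiers.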

Additional observations from a re-analysis of the deposited data

How the results depend on the processing

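No replicate error exists in these values, so alternatives were compared by size. There were 6 alternatives for the ratio between cell types. Across them, the median log2 ratio of the 8 genes ranged from -0.24 without scaling to -0.17 with the median of ratios set to 1. Each of the 8 genes kept its direction. All alternatives but the pseudocount moved the 8 genes by the same small amount, and a pseudocount cannot reverse a direction. Only a gene close to 0 or to 2-fold could therefore have changed. *ASCC1* came closest to 0, from -0.08 to -0.01. *VRK1* ranged from -0.96 to -0.82, so that it stayed short of a 2-fold difference by little. The number of genes at least 2-fold apart was 0 in each. The number above the median gene was 4 to 6 of 8 in iMNs, 6 when divided by transcript length. It was 5 to 8 in i3Ns, 8 when divided by length and 5 among protein-coding genes, among genes with a mean of at least 10 and among genes present in both tables, the last chosen after seeing the data. No paired analysis was possible because the columns pool all replicates of a cell type, and for the same reason no replicate could be left out.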

Other observations

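A further list held 19 other genes of motor neuron disease outside *SMN1*, of which 18 were in both tables. At least 2-fold higher in iMNs were 4 of them, against 14.5% of all shared genes, and none was at least 2-fold higher in i3Ns, against 10.2%. The 4 were *SLC5A7*, the choline transporter gene (log2 ratio 1.83), the small heat shock protein genes *HSPB8* (1.78) and *HSPB1* (1.23), and *UBA1*, the gene of the main ubiquitin-activating enzyme (1.09). The dynein and dynactin genes were close to equal, with *DYNC1H1* at -0.16 and *DCTN1* at 0.03. These are values without replicate error, and no difference was tested. In i3Ns *ISL2* had 3558 normalized counts against 70.6 in iMNs, and *SLC17A6* had 11237 against 593.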
